A study of Caenorhabditis elegans with 12 samples.

Results

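The genes pgl-1, pgl-3, glh-1, glh-2, glh-3, glh-4 and deps-1 of Caenorhabditis elegans encode core proteins of P granules. They were chosen by name, as PGL scaffold genes, Vasa-like GLH helicase genes and deps-1, by a rule that uses no measured value but was set with earlier results of these data known. All 7 were found among the 46245 gene identifiers of the expression table, and all 7 belonged to the 12913 protein-coding genes that were abundant enough to be tested. The report follows their transcripts in young larvae of lin-52(n771) mutants and of the wild-type strain N2.

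P granules are assemblies of RNA and protein that sit at the nuclear envelope of germ cells, where they take up newly exported transcripts and small RNA factors. They form by condensation of the self-associating PGL proteins, and the GLH proteins, DEAD-box RNA helicases related to Vasa, anchor them at nuclear pores. In a newly hatched larva the germ line is a pair of primordial germ cells, and the remaining cells of the animal are somatic. LIN-52 is a subunit of the DREAM complex, a transcriptional repressor of cell-cycle genes and, in somatic cells, of genes characteristic of the germ line.

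RNA was sequenced from whole L1 larvae in 12 libraries, 3 in each of 4 groups. The lin-52 mock group held lin-52(n771) larvae without irradiation and the N2 mock group held wild-type larvae without irradiation. The lin-52 UV and N2 UV groups held larvae of the same strains after UV-B at 60 mJ/cm2. All larvae were fed for 3 h before treatment and collected 6 h after it, and ribosomal RNA was depleted before sequencing. Libraries are named by the number in their labels. The sources call them biological triplicates, 3 of 4 preparations per group having been kept after a check of RNA quality, and the p-values rest on the spread between them. The mutant strain carries 1 allele and no second lin-52 allele was measured here, and each library pooled whole animals, so germ cells and somatic cells were not separated.

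Levels are given in FPKM, fragments counted relative to transcript length and to the mapped fragments of the library, after division by a scaling factor for each library, so that levels may be compared between genes. Fold changes are differences between group means of log2(FPKM + 0.5), given with their standard error, and the added 0.5 makes the changes of weakly expressed genes look smaller than they were. A gene was called at a Benjamini-Hochberg adjusted p below 0.05 in limma, with the adjustment made over all 12913 tested genes. With bulk larvae, a change in the number of cells expressing a gene and a change in transcript per cell cannot be told apart.

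Scaling factors differed little between the libraries, lying between 0.969 and 1.05. The number of genes at 1 FPKM or more was 12475 to 12649 in mock libraries and 12782 to 12973 in UV libraries, without overlap. Reads per library are not given in the table, and 25M read pairs per sample were stated as the design. lin-52 itself had 6.94, 7.43 and 7.58 FPKM in lin-52 mock larvae, against 24.9, 27.6 and 20.4 FPKM in N2 mock larvae, a difference of -1.66 ± 0.09 on the log2 scale (limma adjusted p = 3.48e-07). Ribosomal RNA took 14.7 to 22.6% of summed FPKM in lin-52 mock libraries and 15.6 to 16.2% in N2 mock libraries. After UV-B it took 12.1 to 13.9% in lin-52 UV and 11.6 to 12.6% in N2 UV libraries, below every mock library. The part of these differences in detected genes and ribosomal RNA in the UV changes of the members was not tested. Most markers of muscle, neurons, intestine, epidermis and pharynx were found in every group. The intestinal gene act-5 was listed at 0 in all libraries and the pharyngeal myosin gene myo-1 at 0 in all lin-52 mock libraries, but at 234.4 to 241 FPKM in N2 UV libraries, so an exact 0 in the table need not mean a silent gene. Of 15 markers of oocytes, sperm and adults 10 averaged under 0.1 FPKM in each group. Of the rest, lin-41 averaged 36.1 to 47.9 FPKM over the groups, rme-2 1.54 to 3.38 FPKM and msp-31 1.26 to 2.37 FPKM.

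In unirradiated larvae, pgl-3, glh-1 and pgl-1 were higher in lin-52 mutants than in N2, about 6.38-fold, 4.01-fold and 1.31-fold as ratios of mean FPKM. No member was lower at the threshold, and glh-2, glh-3, glh-4 and deps-1 were not called. Thus 3 of 7 members were called higher and 0 lower, where 3.59% of all tested genes were called higher and 1.74% lower. Without regard to the test, 4 members had all mutant libraries above all wild-type libraries and 1 had them all below, against 10.2% and 14.1% of all tested genes. The median fold change of the members was 0.27 on the log2 scale, beside -0.02 over all tested genes.

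PGL-1 and PGL-3 are paralogous RNA-binding scaffolds whose self-association builds the granule. pgl-3 had 22.03, 22.3 and 23.7 FPKM in lin-52 mock larvae, against 3.65, 3.95 and 3.08 FPKM in N2 mock larvae. Every mutant library lay far above every wild-type library, and the difference was 2.52 ± 0.10 on the log2 scale (limma adjusted p = 1.28e-08). Among all tested genes it ranked 33rd by fold change. Its level stood at the 60.9th percentile of tested genes in lin-52 mock larvae, against the 19.8th percentile in N2 mock larvae.

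pgl-1 started from a higher level and differed less. It had 17.3, 16.7 and 17.0 FPKM in lin-52 mock larvae, against 12.8, 12.96 and 13.3 FPKM in N2 mock larvae. The groups did not overlap and the libraries within each were close, with a coefficient of variation of 1.87% in lin-52 mock and 2.16% in N2 mock larvae. The difference was 0.38 ± 0.04 on the log2 scale (limma adjusted p = 0.000173). The third gene of the family, pgl-2, is no member but is on the list of P granule partner genes taken up below. It was singled out here after the values of the other genes were seen. It averaged 3.71 ± 0.12 FPKM in lin-52 mock and 3.56 ± 0.30 FPKM in N2 mock larvae (SD, n = 3 each), a difference of 0.05 ± 0.09 on the log2 scale that was not called (limma adjusted p = 0.81).

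The balance of the scaffold pair therefore differed between the strains. The ratio of pgl-3 to pgl-1 was 1.27, 1.34 and 1.39 in lin-52 mock larvae, against 0.286, 0.305 and 0.231 in N2 mock larvae. pgl-3 was the more abundant transcript in each mutant library and the less abundant one in each wild-type library. After UV-B the ratio was 1.16, 1.19 and 1.25 in lin-52 UV larvae, against 0.244, 0.254 and 0.298 in N2 UV larvae, and the same split held. The ratio follows from the tests of its 2 genes and was not tested separately.

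**Figure D1:**
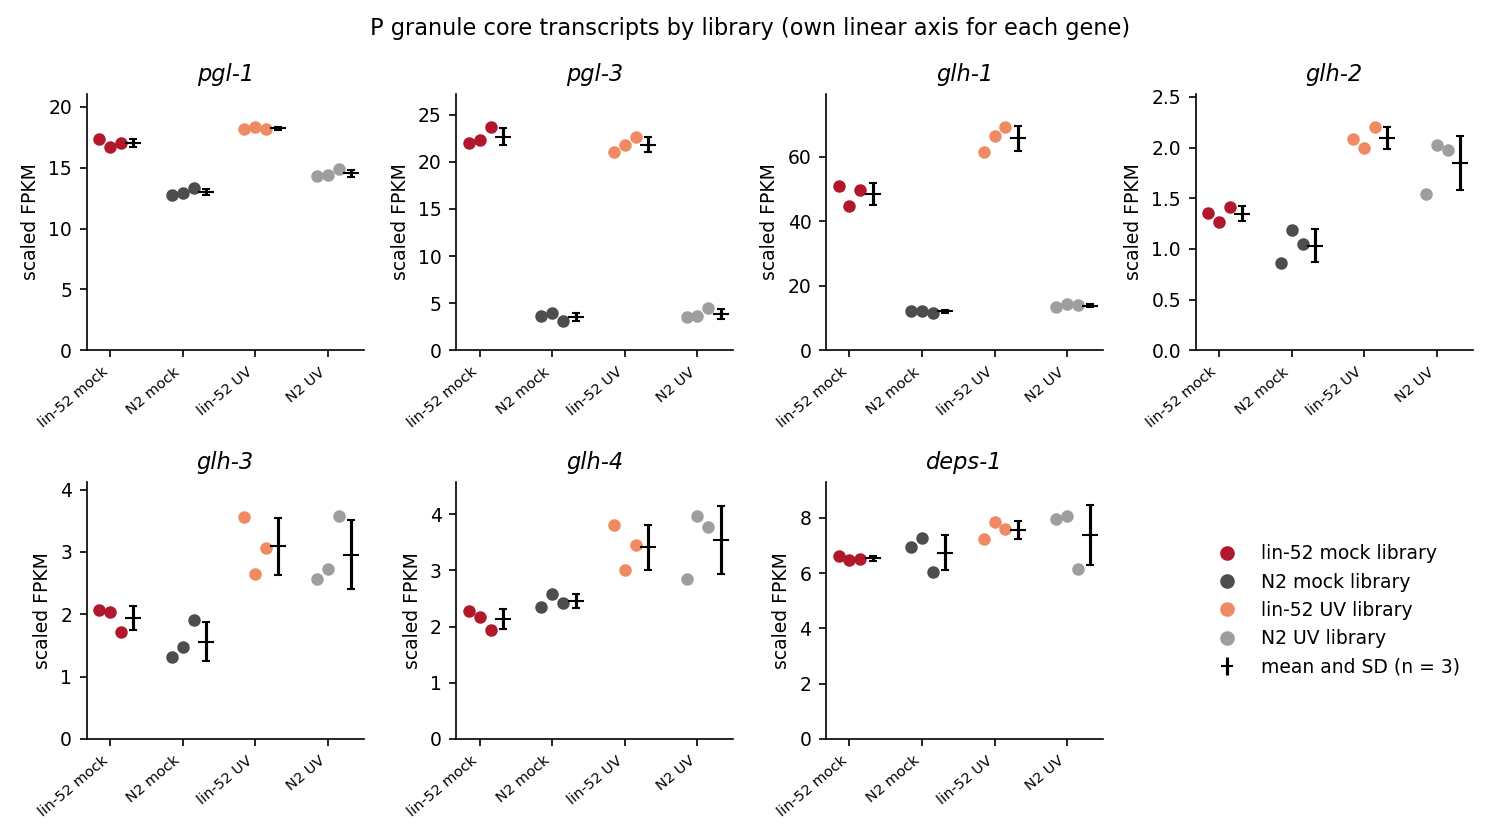
Level of each of the 7 genes in scaled FPKM (vertical axis, linear, starting at 0, its own range for each gene) in lin-52 mock, N2 mock, lin-52 UV and N2 UV larvae. Each coloured point is 1 library and the black mark beside it is the mean with its SD (n = 3); pgl-3 and glh-1 lie far higher in both mutant groups, glh-2, glh-3 and glh-4 lie higher in the irradiated groups of both strains, and deps-1 overlaps between the strains.

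GLH-1 is the main GLH helicase of the adult germ line, and GLH-2, GLH-3 and GLH-4 are its paralogues. glh-1 had 51.0, 44.6 and 49.6 FPKM in lin-52 mock larvae, against 12.2, 12.3 and 11.7 FPKM in N2 mock larvae. The lowest mutant library was well above the highest wild-type library. The difference was 1.96 ± 0.06 on the log2 scale (limma adjusted p = 2.63e-09), the 52nd largest increase of all tested genes. Ribosomal RNA took 22.6, 14.7 and 19.8% of summed FPKM in lin-52 mock replicates 2, 3 and 4. These shares stood in the same order as the glh-1 levels of the 3 libraries, replicate 3 being lowest in both. pgl-3 was at 22.03, 22.3 and 23.7 FPKM in the same libraries. The part of ribosomal RNA content in the strain differences was not tested.

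The remaining helicase genes were expressed at low levels and none of them was called between the strains. glh-2 had 1.36, 1.27 and 1.42 FPKM in lin-52 mock larvae, against 0.864, 1.18 and 1.05 FPKM in N2 mock larvae. The groups did not overlap, but the difference of 0.27 on the log2 scale had a 95% interval of -0.03 to 0.58 (limma adjusted p = 0.335). glh-4 lay the other way, with 2.28, 2.18 and 1.94 FPKM in lin-52 mock larvae, against 2.35, 2.58 and 2.42 FPKM in N2 mock larvae. Its groups did not overlap either, with the mutant group lower, and the difference of -0.17 had an interval of -0.45 to 0.12 (limma adjusted p = 0.564).

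glh-3 had 2.06, 2.04 and 1.71 FPKM in lin-52 mock larvae, against 1.31, 1.47 and 1.91 FPKM in N2 mock larvae, and its groups overlapped. The difference of 0.25 on the log2 scale had an interval of -0.10 to 0.60 (limma adjusted p = 0.458). These intervals exclude, for glh-2, glh-3 and glh-4, a change of the size of that of glh-1, and they leave room for changes as large as that of pgl-1, for glh-4 only as a decrease. How the fragments shared by glh-1 and its close paralogues, glh-2 above all, were divided between them is not given in the sources used here, so the low levels of glh-2 carry that uncertainty.

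Within the helicase family, glh-1 accounted for most of the transcript in either strain, and for more of it in the mutants. Its share of the summed FPKM of the 4 glh genes was 89.9% ± 0.84 in lin-52 mock and 70.5% ± 2.30 in N2 mock larvae (SD, n = 3 each). The summed level of glh-2, glh-3 and glh-4 was 5.42 ± 0.32 FPKM in lin-52 mock and 5.05 ± 0.46 FPKM in N2 mock larvae, which overlapped between libraries.

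DEPS-1 is a P granule protein needed in germ cells for normal accumulation of glh-1 transcript and for the placing of PGL-1 in the granules. deps-1 had 6.62, 6.47 and 6.49 FPKM in lin-52 mock larvae, against 6.93, 7.26 and 6.03 FPKM in N2 mock larvae. The 3 mutant libraries lay inside the range of the wild-type libraries. The difference was -0.04 on the log2 scale with an interval of -0.26 to 0.19 (limma adjusted p = 0.893).

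Added over the 7 genes, the level was 102.7, 95.6 and 101.9 FPKM in lin-52 mock larvae, against 40.1, 41.7 and 39.4 FPKM in N2 mock larvae. The sum of the group means was 2.48 times as high in the mutants, and of the difference of 59.6 FPKM glh-1 made up 60.9%, pgl-3 32.1% and pgl-1 6.74%. The order of the members by level changed accordingly. In N2 mock larvae pgl-1 came before glh-1, followed by deps-1 and pgl-3. In lin-52 mock larvae the order was glh-1, pgl-3, pgl-1 and deps-1, while glh-4, glh-3 and glh-2 held the last places in both strains. No library of 1 of these 4 leading genes reached into the range of the next in either group.

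After UV-B the same question was asked between the irradiated strains. Again 3 of 7 members were called higher in the mutants and none lower, where 13% of all tested genes were called higher and 15.2% lower. The same 3 members, and no other, had groups that did not overlap, with the mutant group higher as for 18.2% of all tested genes, while 24.0% had it lower. These were pgl-3, glh-1 and pgl-1, as in the mock comparison, which uses other libraries of the same strains and shares 1 fit and its estimate of the spread with it.

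pgl-3 had 21.1, 21.8 and 22.6 FPKM in lin-52 UV larvae, against 3.49, 3.66 and 4.45 FPKM in N2 UV larvae. The groups did not overlap, and the difference was 2.36 ± 0.10 on the log2 scale (limma adjusted p = 3.49e-08). glh-1 had 61.4, 66.4 and 69.2 FPKM in lin-52 UV larvae, against 13.3, 14.4 and 13.95 FPKM in N2 UV larvae. These were the highest values of any member in the study, and the difference was 2.20 ± 0.06 on the log2 scale (limma adjusted p = 1.61e-09). By fold change pgl-3 ranked 27th and glh-1 32nd of all tested genes in this comparison.

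pgl-1 had 18.2, 18.4 and 18.2 FPKM in lin-52 UV larvae, against 14.3, 14.4 and 14.9 FPKM in N2 UV larvae. The groups did not overlap, and the difference was 0.32 ± 0.04 on the log2 scale (limma adjusted p = 0.000341). For glh-2, glh-3, glh-4 and deps-1 the irradiated strains overlapped. Their differences lay between -0.04 for glh-4 and 0.15 for glh-2 on the log2 scale, with limma adjusted p-values of 0.457 to 0.863. The widest of their 95% intervals, that of glh-3, ran from -0.29 to 0.41.

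**Figure D2:**
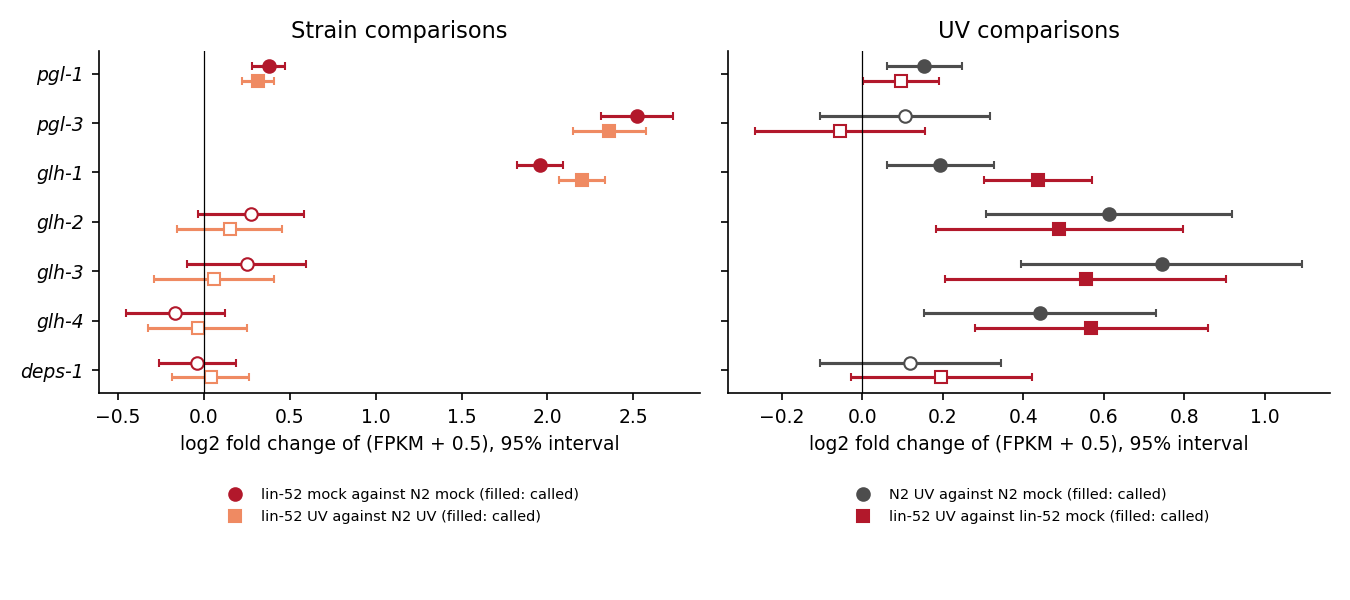
Log2 fold change of (FPKM + 0.5) with its 95% interval from limma (horizontal axis) for each of the 7 genes, with the 2 strain comparisons on the left and the 2 UV comparisons on the right; filled symbols passed an adjusted p of 0.05 and open ones did not. In both strain comparisons pgl-3 and glh-1 lie near or above 2 and pgl-1 between 0.3 and 0.4, while in both UV comparisons glh-2, glh-3 and glh-4 lie between 0.4 and 0.8.

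**Figure D3:**
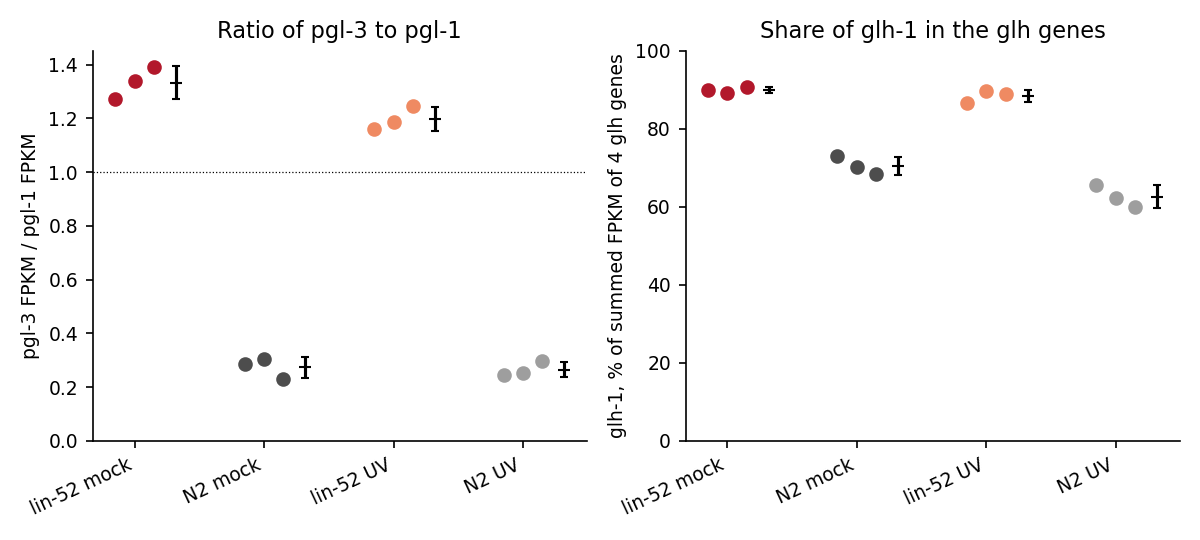
Ratio of pgl-3 FPKM to pgl-1 FPKM (left, linear axis, dotted line at equal levels) and share of glh-1 in the summed FPKM of the 4 glh genes in percent (right) in lin-52 mock, N2 mock, lin-52 UV and N2 UV larvae. Points are libraries and black marks are means with SD (n = 3); the ratio is above 1.1 in all 6 mutant libraries and below 0.31 in all 6 wild-type libraries.

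The share of glh-1 among the glh transcripts was 88.4% ± 1.56 in lin-52 UV and 62.6% ± 2.88 in N2 UV larvae (SD, n = 3 each). The summed level of the 7 genes was 2.54 times as high in lin-52 UV as in N2 UV larvae, at 121.9 ± 4.51 FPKM against 48.0 ± 1.77 FPKM. Of that difference glh-1 made up 70.1%, pgl-3 24.3% and pgl-1 5.01%.

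The effect of irradiation was then examined within each strain. In N2, 5 of 7 members were called higher after UV-B and none lower, in a comparison in which 36.6% of all tested genes were called higher and 37.0% lower. The same 5 had irradiated libraries all above the unirradiated ones, against 38.2% of all tested genes, and none had them all below, against 38.4%. The members that rose were glh-3, glh-2, glh-4, glh-1 and pgl-1, and the changes of pgl-3 and deps-1 did not pass. glh-3 had 2.56, 2.72 and 3.58 FPKM in N2 UV larvae, against 1.31, 1.47 and 1.91 FPKM in N2 mock larvae, a change of 0.74 ± 0.16 on the log2 scale (limma adjusted p = 0.00119). Though this was the member that changed most, it stood only at the 83.4th percentile of all fold changes.

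glh-2 had 1.54, 2.02 and 1.97 FPKM in N2 UV larvae, against 0.864, 1.18 and 1.05 FPKM in N2 mock larvae, a change of 0.61 ± 0.14 on the log2 scale (limma adjusted p = 0.00184). glh-4 had 2.85, 3.98 and 3.78 FPKM in N2 UV larvae, against 2.35, 2.58 and 2.42 FPKM in N2 mock larvae, a change of 0.44 ± 0.13 (limma adjusted p = 0.00969). Neither gene overlapped between the groups, although N2 UV replicate 1 was well below the other irradiated libraries in both. The increases of glh-1 and pgl-1 were small, at 0.19 ± 0.06 and 0.15 ± 0.04 on the log2 scale (limma adjusted p = 0.0126 and 0.0061), and both were lost under quantile normalization. pgl-3 changed by 0.11 on the log2 scale with an interval of -0.11 to 0.32, and deps-1 by 0.12 with an interval of -0.11 to 0.34. Without N2 UV replicate 3, in which deps-1 was lowest at 6.14 FPKM, its difference was 0.24 and passed (limma adjusted p = 0.0295).

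In lin-52 mutants 4 of 7 members were called higher after UV-B and none lower, where 33.1% of all tested genes were called higher and 33.5% lower. All 4 were helicase genes. The irradiated libraries lay above the unirradiated ones without overlap in 6 members, against 34.9% of all tested genes, and below them in none, against 35.3%. glh-4 had 3.80, 3.00 and 3.45 FPKM in lin-52 UV larvae, against 2.28, 2.18 and 1.94 FPKM in lin-52 mock larvae, a change of 0.57 ± 0.13 on the log2 scale (limma adjusted p = 0.00236). glh-3 had 3.56, 2.65 and 3.06 FPKM in lin-52 UV larvae, against 2.06, 2.04 and 1.71 FPKM in lin-52 mock larvae, a change of 0.56 ± 0.16 (limma adjusted p = 0.00877). glh-2 had 2.09, 1.99 and 2.20 FPKM in lin-52 UV larvae, against 1.36, 1.27 and 1.42 FPKM in lin-52 mock larvae, a change of 0.49 ± 0.14 (limma adjusted p = 0.00856). In each of these the lowest irradiated library was above the highest unirradiated one.

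glh-1 changed by 0.44 ± 0.06 on the log2 scale in the mutants (limma adjusted p = 5.4e-05), at the levels of 61.4 to 69.2 FPKM in lin-52 UV and 44.6 to 51.0 FPKM in lin-52 mock larvae. The scaffold genes showed less. pgl-1 lay at 18.2 to 18.4 FPKM in lin-52 UV and 16.7 to 17.3 FPKM in lin-52 mock larvae, and its difference of 0.10 ± 0.04 was not called (limma adjusted p = 0.0646). pgl-3 differed by -0.05 with an interval of -0.27 to 0.16. deps-1 had 7.21, 7.85 and 7.60 FPKM in lin-52 UV larvae, above each of the lin-52 mock libraries, and its difference of 0.20 had an interval of -0.03 to 0.42 (limma adjusted p = 0.112). The differences of pgl-1 and deps-1 passed under some alternatives, among them an equal sum for every library and, for deps-1, the fit without N2 UV replicate 3.

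Whether UV-B acted differently on the members in the 2 strains was tested as the difference between the strain-specific UV effects. For none of the 7 did this difference pass in limma, where 11.6% of all tested genes did, and for 1 member, glh-1, the unadjusted p was below 0.05. Its UV effect was larger in lin-52 than in N2 by 0.24 ± 0.09 on the log2 scale (95% interval 0.05 to 0.43, unadjusted p = 0.0162 and adjusted p = 0.0932 in limma). The call depended on the processing. It passed with an equal sum of FPKM set for every library (0.25, adjusted p = 0.0487 in limma), under quantile normalization (0.29, limma adjusted p = 0.0462) and without lin-52 UV replicate 2 (0.29, limma adjusted p = 0.0379). For the other members the differences lay between -0.19 for glh-3 and 0.13 for glh-4, with intervals as wide as -0.68 to 0.30.

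Ordered over the 4 groups, the members thus fell into different arrangements. glh-1 was highest in lin-52 UV, followed by lin-52 mock, N2 UV and N2 mock, and pgl-1 had the same order, no 2 neighbouring groups overlapping for either gene, although the step between the mutant groups was not called for pgl-1. For pgl-3 both mutant groups stood above both wild-type groups, while the irradiated and unirradiated libraries of a strain overlapped. glh-2, glh-3 and glh-4 were highest in the irradiated groups, where the strains overlapped. For deps-1 the means ran from 7.55 FPKM in lin-52 UV to 6.53 FPKM in lin-52 mock, and N2 libraries of either treatment spread across that range.

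Between members, pgl-3 and glh-1 had a Pearson r of 0.98 over the 12 libraries, pgl-1 and glh-1 0.97, and glh-2 and glh-3 0.90. The libraries form 4 groups, so these values describe mostly the group differences given above. After removal of the group means the r of those pairs was 0.39, 0.28 and 0.37. Among the other tested genes, those most like pgl-3 by Pearson r were F28F8.7 (0.996), pid-2 (0.996) and T28A8.4 (0.994), and those most like glh-1 were T28A8.5 (0.995), snpc-1.2 (0.994) and K12D12.5 (0.994). For pgl-1 they were sas-7 (0.988), cpb-1 (0.984) and F37D6.3 (0.984). With the group means removed the r of these 9 genes with their member lay between -0.03 and 0.57.

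For the members not called between the strains, the Pearson r of the most similar genes was lower. They were rnf-113 (0.96), snrp-200 (0.96) and npp-3 (0.96) for glh-2, and Y37E3.19 (0.96), fbxa-4 (0.96) and aka-1 (0.95) for glh-3. For glh-4 they were spp-25 (0.98), srh-48 (0.95) and fbxa-19 (0.95), and for deps-1 C48B6.4 (0.83), ND6 (0.82) and row-1 (0.82). Each value is a Pearson r over the same 12 libraries.

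The genomic surroundings of the members were read from the Ensembl annotation of WBcel235, while the table was made with an earlier Ensembl release, for which the methods name no assembly. pgl-1 lies at chrIV:6974441-6977318 on the minus strand and pgl-3 at chrV:4755979-4758587 on the plus strand, and the other 5 are on chromosome I. The nearest gene to pgl-1 is him-3, a meiotic HORMA-domain gene on the opposite strand 189 bases away, so that the 2 genes are transcribed away from each other. him-3 averaged 4.39 ± 0.55 FPKM in lin-52 mock and 1.94 ± 0.72 FPKM in N2 mock larvae (SD, n = 3 each), a difference of 1.04 ± 0.20 on the log2 scale (limma adjusted p = 0.0108), and 0.98 ± 0.20 after UV-B (limma adjusted p = 0.00463). Thus this neighbour was also higher in the mutants, by a larger fold than pgl-1 and from a lower level.

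The neighbours of pgl-3 and glh-1 did not pass. hil-4, a linker histone gene 525 bases from pgl-3, averaged 22.6 FPKM in lin-52 mock and 24.3 FPKM in N2 mock larvae (limma adjusted p = 0.575). sacy-1, a DEAD-box helicase gene 337 bases from glh-1, averaged 23 FPKM in lin-52 mock and 21.8 FPKM in N2 mock larvae (limma adjusted p = 0.473). The last 109 bases of deps-1 overlap Y65B4BL.7 on the opposite strand. The library kit keeps strand, but whether fragments were assigned by strand is not stated, so a part of the deps-1 value could come from that gene.

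The other germ granule genes were taken as 2 lists. Of 20 P granule partner genes, which include PGL-associated, MEG, LOTUS-domain and Argonaute genes, 15 were tested. lin-52 mock larvae had 1 of them higher than N2 mock larvae and none lower, beside 3.59% and 1.74% of all tested genes, with a median log2 fold change of 0.04. It was lotr-1, a gene for a LOTUS and Tudor domain protein, at 5.31 ± 0.36 FPKM in lin-52 mock and 3.85 ± 0.23 FPKM in N2 mock larvae (SD, n = 3 each), a difference of 0.42 ± 0.08 on the log2 scale (limma adjusted p = 0.0122). After UV-B 4 of the 15 were higher and none lower in the mutants, beside 13% and 15.2% of all tested genes. These were gld-1, lotr-1, ife-1 and wago-1, higher by 0.20 to 0.54 on the log2 scale, with a median of 0.08 over the list and -0.02 over all tested genes. None of these reached the differences of pgl-3 and glh-1.

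The second list held 23 genes of Z granules, mutator foci and SIMR foci. These compartments adjoin P granules and act in small RNA pathways. Of the 23 genes 22 were tested. In lin-52 mock larvae 7 were higher than in N2 mock larvae and none lower, beside the same 3.59% and 1.74% of all tested genes, with a median log2 fold change of 0.08. pid-2, which encodes a Z granule protein, averaged 81.3 ± 3.15 FPKM in lin-52 mock and 6.33 ± 0.64 FPKM in N2 mock larvae (SD, n = 3 each), a difference of 3.59 ± 0.07 on the log2 scale (limma adjusted p = 4.29e-11) that exceeded that of any P granule core gene. nyn-1, a nuclease gene of the mutator foci, was higher by 1.48 ± 0.08, mut-2, a nucleotidyltransferase gene, by 0.75 ± 0.08, and ekl-1, a Tudor-domain gene, by 0.60 ± 0.06. After UV-B 6 were higher in lin-52 than in N2 and 1 lower, beside 13% and 15.2% of all tested genes, with pid-2 (3.49), nyn-1 (1.80), mut-2 (0.84) and drh-3 (0.50) leading on the log2 scale.

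**Figure D4:**
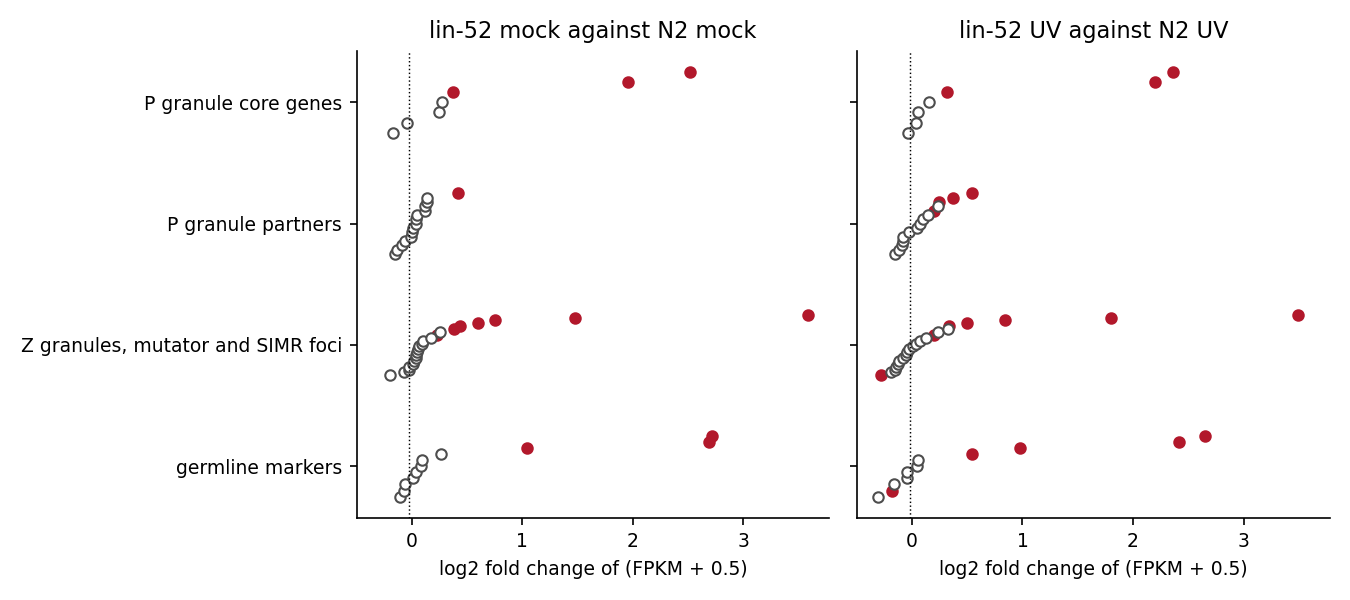
Log2 fold change of (FPKM + 0.5) between the strains (horizontal axis) for the P granule core genes, P granule partners, genes of Z granules, mutator and SIMR foci, and germline markers, without UV-B on the left and after it on the right. Each point is 1 tested gene, filled where called by limma, spread vertically by rank within its list, and the dotted line is the median of all tested genes; in each list the strain difference rests on a few genes, pgl-3 and glh-1 in the first and pid-2 and nyn-1 in the third.

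Within the strains, the lists moved with UV-B in both directions. Of the P granule partners 7 were higher and 2 lower in N2 UV than in N2 mock larvae, and 6 were higher and 1 lower in lin-52 UV than in lin-52 mock larvae. Of the second list 13 were higher and 2 lower in N2 UV than in N2 mock larvae, and 12 were higher and 3 lower in lin-52 UV than in lin-52 mock larvae. Of all tested genes 36.6% were called higher and 37.0% lower in N2, and 33.1% higher and 33.5% lower in lin-52.

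Germline markers other than the members were examined because the primordial germ cells are part of every library, and gld-1 is also on the list of P granule partners. Of 12 such markers 11 were tested, and 3 were higher and none lower in unirradiated lin-52 larvae compared with N2, beside 3.59% and 1.74% of all tested genes. These were rnp-8 (2.72 ± 0.13 on the log2 scale), hrde-1 (2.69 ± 0.06) and him-3, of which hrde-1 encodes a nuclear Argonaute. The summed level of all 12 markers ran from 204.8 to 232.8 FPKM in lin-52 mock and from 129.9 to 134 FPKM in N2 mock libraries, and hrde-1 alone averaged 89.3 FPKM in lin-52 mock and 13.4 FPKM in N2 mock larvae. After UV-B 4 of the 11 were higher and 1 lower in lin-52 than in N2, beside 13% and 15.2% of all tested genes. gld-1 (0.54 on the log2 scale) joined the 3 named, and mex-3 (-0.18) was the lower one. The 8 tested markers of the list that were not called without UV-B were nos-1, xnd-1, iff-1, gld-1, glp-1, mex-3, rec-8 and htp-3. Their differences ran from -0.11 for iff-1 to 0.26 for rec-8 on the log2 scale. Of these, nos-1 and xnd-1 are genes of primordial germ cells. nos-1, a Nanos gene, averaged 0.774 ± 0.281 FPKM in lin-52 mock and 0.817 ± 0.207 FPKM in N2 mock larvae (SD, n = 3 each). xnd-1 averaged 2.75 ± 0.09 FPKM in lin-52 mock and 2.57 ± 0.22 FPKM in N2 mock larvae (SD, n = 3 each). The differences of nos-1 and xnd-1 were -0.06 ± 0.22 and 0.09 ± 0.10 on the log2 scale (limma adjusted p = 0.926 and 0.725). nos-2 was too low to be tested, with means of 0.196 FPKM in lin-52 mock and 0.322 FPKM in N2 mock larvae. The part of a different number of germ cells in the levels of pgl-3, glh-1 and pgl-1 was not tested.

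Carry-over from embryos was looked at in the same way. Of 12 embryonic markers 6 were tested. None was called between the strains without UV-B, beside 3.59% of all tested genes called higher and 1.74% lower. The summed levels of the 12 were 18.7 to 19.2 FPKM in lin-52 mock and 20.1 to 20.8 FPKM in N2 mock libraries. Most of these sums was hlh-1, which is also on the muscle list and averaged 12.1 FPKM in lin-52 mock and 13.5 FPKM in N2 mock larvae. After UV-B, oma-1 was lower in lin-52 than in N2, with a difference of -0.64 ± 0.18 on the log2 scale (limma adjusted p = 0.0204). It was the only 1 of the 6 called there, beside 13% of all tested genes called higher and 15.2% lower. Within the strains, 4 of the 6 were higher in N2 UV than in N2 mock larvae and 3 of the 6 in lin-52 UV than in lin-52 mock larvae. None was lower in either strain. Of all tested genes 36.6% were called higher and 37.0% lower in N2, and 33.1% higher and 33.5% lower in lin-52.

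Somatic markers changed with irradiation in both directions, beside the shares of all tested genes given above for the UV comparisons. In N2 UV larvae 9 of 10 muscle genes, 8 of 10 neuronal genes and 6 of 8 epidermal genes were lower than in N2 mock larvae, and 1, 1 and 0 were higher. In lin-52 UV larvae 9 of 10 muscle genes, 9 of 10 neuronal genes and 5 of 8 epidermal genes were lower than in lin-52 mock larvae, and 1, 0 and 0 were higher. Of 8 intestinal genes 5 were higher and 2 lower in N2 UV than in N2 mock larvae, and 5 higher and 1 lower in lin-52 UV than in lin-52 mock larvae. Of 8 pharyngeal genes 2 were higher and 3 lower in N2 UV than in N2 mock larvae, and 3 higher and 1 lower in lin-52 UV than in lin-52 mock larvae. Summed muscle markers ran from 2666 to 2915 FPKM in N2 UV and 4266 to 4446 FPKM in N2 mock libraries, and from 2891 to 3076 FPKM in lin-52 UV and 3793 to 4108 FPKM in lin-52 mock libraries. Summed neuronal markers ran from 668.8 to 685.1 FPKM in N2 UV and 857.2 to 877.3 FPKM in N2 mock libraries, and from 608.4 to 664.2 FPKM in lin-52 UV and 802.3 to 834.9 FPKM in lin-52 mock libraries. Of the 11 germline markers tested, 4 were higher and 1 lower in N2 UV than in N2 mock larvae. In lin-52 UV larvae 2 were higher and 2 lower than in lin-52 mock larvae. In N2 and lin-52 nos-1 was higher (0.97 and 0.73 on the log2 scale) and iff-1 lower (-0.32 and -0.26). The part of these shifts, germline, embryonic and somatic, in the UV changes of glh-1, glh-2, glh-3, glh-4 and pgl-1 was not tested.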

How the data were processed

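Total RNA of whole L1 larvae was depleted of ribosomal RNA and sequenced as paired ends with a stranded kit. The authors mapped the reads with TopHat and estimated abundance with Cufflinks, which divides by transcript length and mapped fragments, and deposited 1 table of FPKM for all 12 libraries. An Ensembl gene annotation was used, older than the one read here. The assembly name and the handling of shared fragments and of strand are not given in the sources used here. DESeq2, which the authors used, needs read counts and was not applied. Identifiers were named from the Ensembl annotation of WBcel235 (45990 of 46245 matched).

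FPKM were divided by median-ratio size factors over protein-coding genes and converted to log2(FPKM + 0.5). Protein-coding genes that averaged 1 FPKM or more were fitted in limma 3.58.1 (R 4.3.3) with 4 group means, 5 contrasts and a trended variance, and the fit was tested on simulated data. No member value was 0. All 7 members, the check of lin-52, the 3 most correlated genes for each member, and up to 4 called genes with the largest fold change for each granule list and comparison were to be named; pgl-2, the neighbouring genes and the germline markers were named besides. Of the list entries 3 matched no symbol. Members and lists were chosen with earlier results of these data known. Alternatives changed the scaling, the pseudocount, the filter, the genes, the model and the libraries included. Depth per library is not in the table and no counting interval was computed.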

Additional observations from a re-analysis of the deposited data

How the results depend on the processing

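The members were recomputed under 12 processing alternatives for each comparison and without each library in turn, except that a fit to 6 libraries cannot give the difference between strains. Of 35 member results 15 were called, and 13 of these were called under every alternative in which they could be fitted. None was reversed while called. pgl-3, glh-1 and pgl-1 were higher in lin-52 in both strain comparisons under all of them, with 3 members called each time. The 5 members higher in N2 UV than in N2 mock larvae became 3 under quantile normalization, where pgl-1 (0.09, limma adjusted p = 0.0769) and glh-1 (0.13, limma adjusted p = 0.0658) dropped out. With a filter at 5 FPKM, under which 4 members were tested, the count was 2 in N2, and in the lin-52 comparison 1 in place of 4. Without single libraries it ranged from 5 to 6 in N2 and from 4 to 5 in lin-52. The difference between strains in the UV effect passed for 1 member, glh-1, in place of 0 with libraries scaled to an equal sum and under quantile normalization, and for 0 to 1 members without single libraries.

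Deviations from the group means were compared between libraries of different groups. Libraries that share a number had a median r of -0.01 over 13 pairs, above 0.1 in 3. Those with different numbers had -0.01 over 41 pairs, above 0.1 in 5. With 3 libraries in a group these values cannot decide whether the numbers pair the libraries, and the main fit treated them as unpaired. With the replicate number as a block the counts of called members were 3 in both strain comparisons, 5 and 4 in the UV comparisons and 0 for the difference between strains. It changed no call of a member. The genes most like each member depended on the measure, since 0 or 1 of the 3 named genes remained with Spearman's rho and 0 with the group means removed. The levels of glh-2, glh-3 and glh-4, near 1 to 4 FPKM, limit their precision. The standard errors of their strain differences were 0.14, 0.16 and 0.13 on the log2 scale, both without UV-B and after it. Calls were made on adjusted p-values, so strain differences of about 0.3 and also larger ones could go uncalled for these genes. The smallest difference that could be called for them was not computed.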
